A study of Mus musculus with 6 samples.

Results

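Methylated DNA of mouse primary mesangial cells was mapped by MeDIP-seq in 3 control samples and in 3 samples treated for 72 h with 10 ng/ml TGF-β1, and these 6 are described here by the base composition of their peaks instead of by treatment. Ordered by the mean GC content of the peaks, the lower 3 were control replicate 1 (47.1%), TGF-β1 replicate 3 (47.4%) and TGF-β1 replicate 1 (47.8%), and the higher 3 were control replicate 2 (48.1%), TGF-β1 replicate 2 (48.1%) and control replicate 3 (48.4%). They are called the lower-GC and the higher-GC samples below. Each set holds both treatments, so that the contrast of the sets is not a comparison of TGF-β1 with control. All cells, control cells included, were cultured in high glucose (25.5 mM) with 20% foetal bovine serum and used between passages 3 and 6. The study calls the replicates biological, and no source used here says whether they were separate cultures, so p-values measure only the spread between these samples. Peaks of DNA hold no expression, so the cell type could not be checked against marker levels.

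Mesangial cells are the contractile, pericyte-like cells that hold the capillary loops of the kidney glomerulus together, and they lay down matrix in diabetic and other kidney disease. In mammals, DNA methylation falls almost entirely on the cytosine of CpG dinucleotides, and most CpGs outside CpG islands are methylated, including those in gene bodies. In MeDIP, sonicated DNA is pulled down with an antibody against methylated cytosine, so the yield at a site depends on the number of methylated CpGs in the fragment as well as on the share of molecules that carry them. A pileup from bulk DNA cannot tell these apart. Coding exons and CpG islands are richer in GC than introns and intergenic DNA, and amplification and sequencing of a library are known to depend on GC content.

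The deposited lists held 81473 to 105520 peaks per sample, called separately in each sample from 9407103 to 13291419 reads. Joining every set of peaks that shared 1 bp or more, across all 6 lists, gave 170444 regions. Of these, 1289 (0.756%) were called in all 3 lower-GC samples and in no other, 1930 (1.13%) in all 3 higher-GC samples and in no other, and 41744 in all 6. By the same rule, 1616 regions (0.948%) were called in all TGF-β1 samples only and 397 (0.233%) in all control samples only. The TGF-β1 samples also had more reads, 12634300 to 13291419 against 9407103 to 11494356 in control samples, and these counts were not adjusted for depth. Without a call, a region did not pass the threshold of the peak caller, which does not mean that it held no reads. The sets were chosen on peak GC, so every value that sets the lower-GC against the higher-GC samples is a description and was not tested.

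The reference sequence around the summits shows what kind of DNA the calls fall on. Each is 200 bases of the plus strand of mm9 centred on the summit, with the CpG dinucleotides, the bases that can carry the methyl group, in capitals. The first are the 2 regions of highest mean pileup among those called in the lower-GC samples only, both in introns.
Maf (chr8:118212527-118212726): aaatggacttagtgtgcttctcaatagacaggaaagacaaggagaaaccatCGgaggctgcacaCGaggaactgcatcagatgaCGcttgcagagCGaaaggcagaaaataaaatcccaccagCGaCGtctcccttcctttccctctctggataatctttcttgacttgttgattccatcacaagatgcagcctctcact
Arhgap10 (chr8:79863683-79863882): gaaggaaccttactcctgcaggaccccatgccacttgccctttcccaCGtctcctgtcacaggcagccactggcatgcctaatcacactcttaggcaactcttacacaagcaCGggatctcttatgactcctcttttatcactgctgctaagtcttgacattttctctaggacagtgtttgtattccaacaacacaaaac
These hold 6 and 2 CpGs at a GC content of 47.0% and 48.0%. The next are the 2 regions of highest mean pileup among those called in the higher-GC samples only, one in the coding exon of Dux and the other between genes, nearest to Churc1.
Dux (chr10:57687428-57687627): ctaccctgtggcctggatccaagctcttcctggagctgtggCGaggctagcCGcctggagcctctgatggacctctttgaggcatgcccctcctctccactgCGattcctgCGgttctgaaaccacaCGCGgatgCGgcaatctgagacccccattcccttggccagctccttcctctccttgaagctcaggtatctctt
Churc1 (chr12:77844767-77844966): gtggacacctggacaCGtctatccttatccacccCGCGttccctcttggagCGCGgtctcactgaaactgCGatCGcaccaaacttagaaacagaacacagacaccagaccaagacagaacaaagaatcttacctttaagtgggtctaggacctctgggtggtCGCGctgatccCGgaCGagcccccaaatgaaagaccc
They hold 7 and 11 CpGs at a GC content of 59.5% and 54.0%. These windows are examples, and over the 3 regions of highest mean pileup of each kind both the CpG counts and the GC contents of the windows overlapped. In regions called in all 6 samples, the 3 with the widest excess in the lower-GC samples, among those in which the values of the sets did not overlap, lay between genes, nearest to Ntng1, Tmprss11e and C1ql1.
Ntng1 (chr3:109575075-109575274): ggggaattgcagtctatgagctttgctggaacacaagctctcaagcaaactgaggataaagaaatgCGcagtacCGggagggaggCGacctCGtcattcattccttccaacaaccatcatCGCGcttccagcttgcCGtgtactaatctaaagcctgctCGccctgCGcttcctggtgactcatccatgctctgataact
Tmprss11e (chr5:87197066-87197265): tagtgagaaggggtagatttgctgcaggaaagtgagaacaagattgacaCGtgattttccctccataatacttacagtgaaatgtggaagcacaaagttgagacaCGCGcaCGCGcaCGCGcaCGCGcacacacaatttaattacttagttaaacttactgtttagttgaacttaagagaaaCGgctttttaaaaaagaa
C1ql1 (chr11:102812889-102813088): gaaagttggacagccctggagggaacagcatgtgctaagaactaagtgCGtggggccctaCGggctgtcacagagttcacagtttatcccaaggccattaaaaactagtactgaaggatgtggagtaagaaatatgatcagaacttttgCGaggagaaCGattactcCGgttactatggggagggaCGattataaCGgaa
They hold 9, 10 and 7 CpGs at a GC content of 51.5%, 40.5% and 47.0%. The 3 with the widest excess in the higher-GC samples lay between genes near Gm14409 and in coding exons of Slc27a1 and Zfp42.
Gm14409 (chr2:177036289-177036488): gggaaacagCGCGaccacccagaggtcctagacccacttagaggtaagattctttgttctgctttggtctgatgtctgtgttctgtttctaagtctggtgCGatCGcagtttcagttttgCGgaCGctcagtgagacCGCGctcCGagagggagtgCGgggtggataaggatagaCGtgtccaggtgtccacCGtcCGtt
Slc27a1 (chr8:74104638-74104837): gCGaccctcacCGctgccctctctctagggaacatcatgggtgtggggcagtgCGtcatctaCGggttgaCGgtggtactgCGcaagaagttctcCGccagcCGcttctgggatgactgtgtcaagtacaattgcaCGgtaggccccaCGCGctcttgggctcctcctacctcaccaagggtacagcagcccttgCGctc
Zfp42 (chr8:44381100-44381299): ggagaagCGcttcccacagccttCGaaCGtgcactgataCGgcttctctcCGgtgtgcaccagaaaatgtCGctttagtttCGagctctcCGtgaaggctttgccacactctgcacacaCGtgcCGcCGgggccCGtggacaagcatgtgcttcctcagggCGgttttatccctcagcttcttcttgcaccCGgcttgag
These hold 13, 12 and 14 CpGs at a GC content of 54.5%, 61.0% and 58.0%. Each of the 3 windows thus had more CpGs than any of the 3 windows with the opposite difference. The Gm14409 window holds, on the opposite strand, a stretch of the Churc1 window, so these regions share sequence. Repeats were not annotated here, and read counts in repeated sequence are uncertain.

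The peak lists of the 6 samples parted at the GC-rich end. Peaks with a GC content of 55% to 60% made up 1.94% of the peaks of control replicate 1, 3.71% of TGF-β1 replicate 3 and 5.91% of TGF-β1 replicate 1. In the higher-GC samples they made up 7.43% in control replicate 2, 8.25% in TGF-β1 replicate 2 and 9.41% in control replicate 3. The samples formed a graded series with no wide gap, and the 2 samples next to the border, TGF-β1 replicate 1 and control replicate 2, lay nearer to each other than to the ends of the series. Averaged over a set, mean peak GC was 47.5% ± 0.345 (SD, n = 3) in the lower-GC and 48.2% ± 0.154 (SD, n = 3) in the higher-GC samples. At a GC content of 60% or more, control replicate 1 had 33 peaks, TGF-β1 replicate 3 had 47 and TGF-β1 replicate 1 had 132, against 229, 467 and 752 in control replicate 2, TGF-β1 replicate 2 and control replicate 3. Below 40% GC the samples lay close together, from 7.05% to 7.67% of their peaks.

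**Figure D1:**
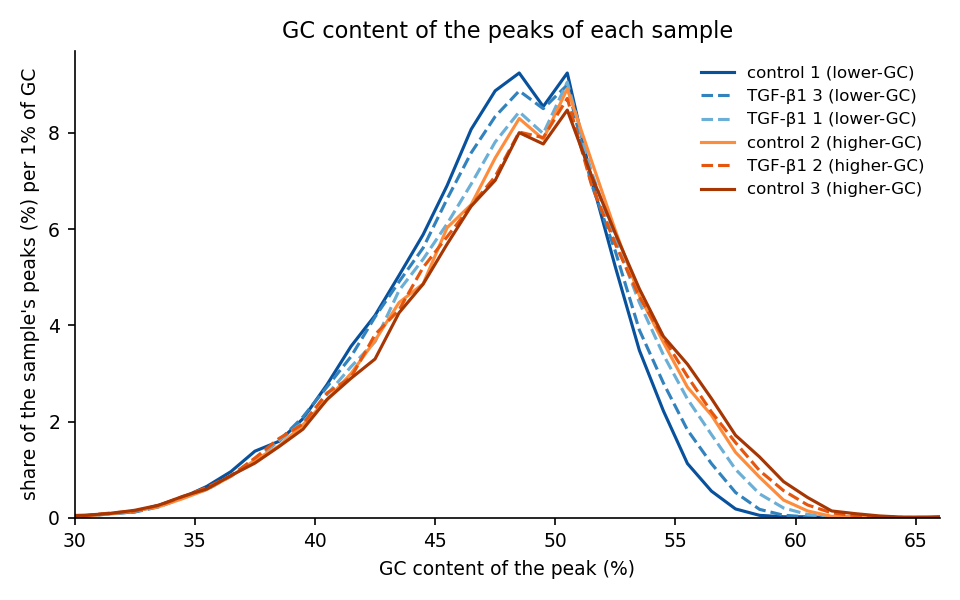
Share of each sample's peaks (vertical axis, % of peaks per 1% of GC) against the GC content of the peak (horizontal axis, %), with control samples as solid and TGF-β1 samples as dashed lines. The lower-GC samples (blue) exceed the higher-GC samples (orange) between 45% and 50% GC and fall below them above 55%, and the lines of both treatments are found on each side.

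Other features of the peaks followed the same order in part. CpG-island-like peaks, defined here as at least 200 bp long with a GC content above 50% and an observed to expected CpG ratio above 0.6, made up 5.59% to 7.09% of peaks in the lower-GC and 8.16% to 8.56% in the higher-GC samples. Coding exons (CDS) held the summits of 6.59% to 8.18% of peaks in the lower-GC and 8.71% to 9.40% in the higher-GC samples. The mean number of CpGs per 100 bp of peak was 2.63 to 2.72 in the former and 2.79 to 2.81 in the latter. For the 2 kb upstream of genes (Up2k), the shares of 2.76% to 2.79% and 2.70% to 2.78% overlapped. Depth and fragment length were not used to choose the sets. The number of reads was 12119700 ± 1582530 (SD, n = 3) in the lower-GC and 11178600 ± 1636610 (SD, n = 3) in the higher-GC samples (exact two-sided permutation test, p = 0.5), and the fragment length given by the peak caller was 286 ± 4.51 bp and 284 ± 2.08 bp (SD, n = 3 each; p = 0.7 by the same exact permutation test). With 3 samples in each set, p cannot fall under 0.1.

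The same can be read from the region to the sample, as the share of joined regions called. Since the regions are the union of the samples' own peaks, these shares restate the peak GC of the samples and are no second line of evidence. Of the regions with a GC content of 60% or more, 451 were called in 1 sample only. Of the 791 regions with a GC content of 60% or more, 22 (2.78%) were called in control replicate 1, 41 (5.18%) in TGF-β1 replicate 3 and 119 (15.0%) in TGF-β1 replicate 1. In the higher-GC samples it was 173 (21.9%) in control replicate 2, 379 (47.9%) in TGF-β1 replicate 2 and 650 (82.2%) in control replicate 3. Of the 11602 regions between 55% and 60%, control replicate 1 called 13.8% and TGF-β1 replicate 3 called 32.6%, while TGF-β1 replicate 1 (46.0%) and control replicate 2 (47.8%) were near each other and TGF-β1 replicate 2 (60.03%) and control replicate 3 (68.4%) were higher. Between 45% and 50% GC the order was another one. There, TGF-β1 replicate 3 called the most regions (68.4%) and control replicate 1 the fewest (55.6%), both of them lower-GC samples.

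**Figure D2:**
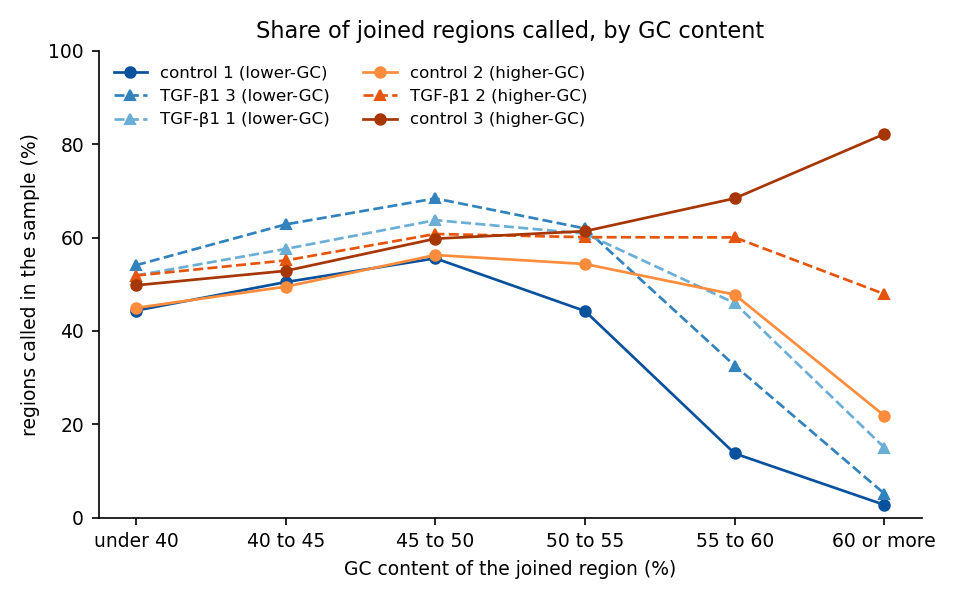
Share of the 170444 joined regions that was called in each sample (vertical axis, %) in bins of the GC content of the region (horizontal axis, %; regions without reference sequence are left out), with circles for control and triangles for TGF-β1 samples. From 50% GC upward the 6 lines spread, to between 2.78% and 82.2% at 60% or more.

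Since the sets cross treatment, regions picked by the calls of one treatment can be read in samples of the other, although GC-rich calls also set the mean peak GC by which the sets were chosen. Among regions of at least 55% GC, 3437 were called in control replicates 2 and 3 but not in control replicate 1. Of these, TGF-β1 replicate 2 held 82.5%, TGF-β1 replicate 1 held 66.9% and TGF-β1 replicate 3 held 39.3%, against 60.1%, 45.4% and 31.6% of all such GC-rich regions called in any control sample. In the other direction, 2997 regions of at least 55% GC were called in TGF-β1 replicate 2 but in neither of the other TGF-β1 samples. Control replicate 1 held 1.67% of them, control replicate 2 held 29.5% and control replicate 3 held 61.3%, against 15.0%, 51.4% and 67.2% of GC-rich regions called in any TGF-β1 sample. Picked the opposite way, 288 regions of at least 55% GC were called in control replicate 1 but in neither of the other control samples. Of these, TGF-β1 replicate 3 held 34.0%, TGF-β1 replicate 1 held 28.8% and TGF-β1 replicate 2 held 22.9%. The shares of GC-rich regions called in any control sample were 31.6%, 45.4% and 60.1% in the same order. Of 410 regions of at least 55% GC called in TGF-β1 replicates 1 and 3 but not in TGF-β1 replicate 2, control replicate 1 held 23.2%, control replicate 2 held 47.8% and control replicate 3 held 54.1%. The shares of GC-rich regions called in any TGF-β1 sample were 15.0%, 51.4% and 67.2%.

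The regions called in 1 set only differed in composition, which follows in part from how the sets were chosen. The median GC content was 47.0% for the lower-GC-only and 53.0% for the higher-GC-only regions, against 47.9% for all regions. Of the 1930 higher-GC-only regions, 636 (33.1%) had a GC content of 55% to 60% and 51 (2.65%) had 60% or more, against 21 (1.63%) and 0 of the lower-GC-only regions and 6.84% and 0.466% of all regions. The median number of CpGs per 100 bp was 3.02 in higher-GC-only, 2.23 in lower-GC-only and 2.37 in all regions. CpG-island-like sequence was found in 184 (9.56%) of the higher-GC-only and 21 (1.63%) of the lower-GC-only regions, against 4.29% of all regions. The GC content of the surrounding 20000 bp differed less, at a median of 45.6% for higher-GC-only and 44.4% for lower-GC-only regions. The excess of a region over its surroundings was 6.16 and 1.996 percentage points in the same order, against 3.26 in all regions. At the GC-rich end the higher-GC-only regions thus lay above the share of all regions and the lower-GC-only regions below it. The median of the mean pileup was 19.3 reads in higher-GC-only and 18.3 reads in lower-GC-only regions, against 26.5 reads in regions called in all 6 samples.

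The higher-GC-only regions fell on coding exons more often. Their summits lay in CDS in 404 cases (20.998%), against 78 (6.07%) of the lower-GC-only and 7.98% of all regions. Intergenic summits were fewer, at 32.8% against 41.3% of lower-GC-only and 43.7% of all regions. Exons are GC-rich, and in regions of 55% to 60% GC from any sample 29.6% of summits lay in CDS, while it was 37.6% of the higher-GC-only regions in the same range. Between 50% and 55% GC the CDS shares were 17.0% of higher-GC-only, 6.62% of lower-GC-only and 10.4% of all regions. In the 2 kb upstream of genes the shares were 2.81% of higher-GC-only and 3.19% of lower-GC-only regions, near the 2.84% of all regions. The exons hit by higher-GC-only regions had a median length of 231 bp and those hit by lower-GC-only regions one of 159 bp, against 212 bp in all regions.

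**Figure D3:**
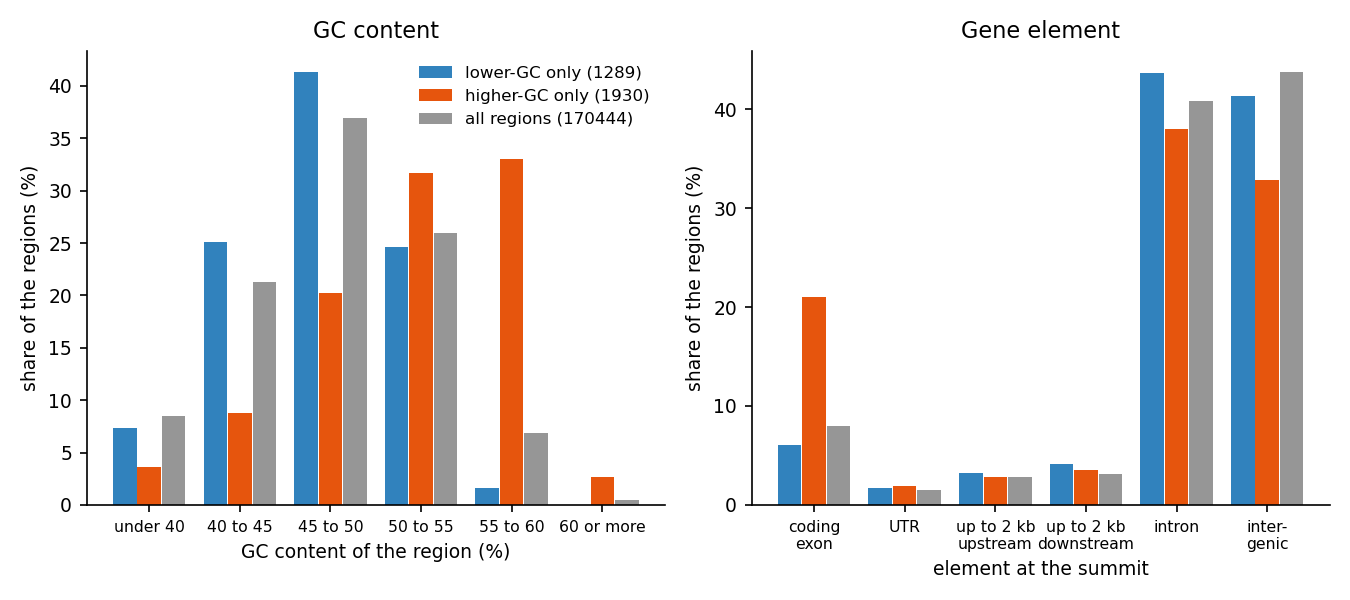
Share of regions (vertical axes, %) by GC content (left, in bins of %) and by the gene element at the summit (right), for regions called in all lower-GC samples only (blue), in all higher-GC samples only (orange) and for all joined regions (grey), with the number of regions in the legend. Higher-GC-only regions exceed all regions above 50% GC and in coding exons, where they reach 20.998% against 7.98%.

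Both kinds of region were found on nearly every chromosome. In all, higher-GC-only regions outnumbered lower-GC-only regions by 1930 to 1289, or 1.13% to 0.756% of the joined regions. On chromosome 7 it was 112 to 45, or 1.44% to 0.578% of the regions there. On chromosome 11 it was 144 to 67, or 1.496% to 0.696%. On chromosome X, with 2694 regions, it was 32 to 8, or 1.19% to 0.297%. The higher-GC-only share of chromosome X was thus near that of all regions, and its lower-GC-only share was below. Chromosome 19 was the exception among the autosomes, with 46 higher-GC-only and 51 lower-GC-only regions.

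Of the 8 lower-GC-only regions that were strongest by mean pileup, 6 were intronic. The region in an intron of Maf, a basic leucine zipper transcription factor (chr8:118212470-118212805), had pileups of 42, 48 and 48 reads in the samples of this set, control replicate 1 and TGF-β1 replicates 1 and 3. The region in an intron of Arhgap10, which encodes a GTPase-activating protein (chr8:79863641-79863979), had 34, 53 and 48 reads in the same samples. These pileups were above the median of 23 to 30 reads that the samples had in regions called in all 6. Their fold enrichment over the local background, 4.17 to 5.32, was below the median of 6.10 to 6.27 over all peaks of these samples. By that measure they were weaker than most peaks. Galns, which encodes a lysosomal sulfatase that degrades keratan sulfate, held a pair of lower-GC-only regions, with 38, 42 and 49 reads in the first and 38, 48 and 42 reads in the other. The remaining regions of the 8 strongest lay in introns of Wwox, a WW-domain oxidoreductase gene spanning a fragile site, and Negr1, a neuronal adhesion molecule, and between genes near Gm13139 and Gm16382, with mean pileups of 37.0 to 39.7 reads. Of these 8, which were picked by pileup, 5 lay on chromosome 8, a chromosome with high pileups in every sample, while of all 1289 lower-GC-only regions 92 did and of all 170444 regions 11798.

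The strongest higher-GC-only regions had more reads and more GC. In the coding exon of Dux, a double homeobox factor active at the start of embryonic transcription (chr10:57687047-57687774), pileups were 38, 96 and 76 reads in control replicates 2 and 3 and TGF-β1 replicate 2. Dux belongs to a tandem array of near-identical copies, which makes its read count uncertain. For the other regions repeats were not annotated. The region nearest to Churc1, 21659 bp upstream of it (chr12:77844664-77845038), had 39, 88 and 69 reads, and the one nearest to Pdia4, a protein disulfide isomerase of the endoplasmic reticulum, had 43, 70 and 61 reads. In these regions control replicate 3 was highest and control replicate 2 lowest, the order in which the samples also called regions of 60% GC or more. Tob2, which encodes an antiproliferative protein, held a coding exon region (chr15:81681717-81682407) with 29, 77 and 44 reads, and a UTR region of Pou6f1, a POU homeodomain factor, had 36, 47 and 57 reads. The other 3 of the 8 lay between genes near Sfi1, Vmn1r29 and Scaf8, with mean pileups of 46.3 to 55 reads. By fold enrichment, the regions of Dux (3.71 to 5.72) and near Sfi1 (3.98 to 5.56) lay below the medians of 6.14 to 6.33 over all peaks of these samples. Those of Tob2 (7.97 to 13.1) and near Vmn1r29 (11.2 to 20.1) lay above them, and the rest had values on both sides. The GC content of the 8 regions was 55.04% to 64.1%, while that of the 8 strongest lower-GC-only regions was 39.0% to 52.6%.

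Among 22367 protein-coding genes, 758 (3.39%) held a lower-GC-only region in the gene or within 2 kb and 1256 (5.62%) a higher-GC-only region. Of the genes of TGF-β ligands, receptors and Smads, which carry the signal of the treatment, 3 of 22 held a lower-GC-only region and 1 of 22 a higher-GC-only region. Their median length was 61.4 kb, against 15.4 kb of all genes, and 100% held a region of any kind, against 75.1%. Tgfbr3, the co-receptor betaglycan, had a lower-GC-only region in its UTR with 23, 32 and 34 reads in control replicate 1 and TGF-β1 replicates 1 and 3. Ltbp3, a latent TGF-β binding protein, and Smad6, an inhibitory Smad, had intronic ones with 16, 28 and 25 and with 21, 17 and 29 reads. Smad1, a signal transducer of the BMP branch, had a higher-GC-only region in a coding exon (chr8:81895607-81896001) with 37, 45 and 41 reads in control replicates 2 and 3 and TGF-β1 replicate 2. That these regions were called in samples of both treatments follows from the rule, since each set holds both.

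Of 43 collagen genes, which encode the fibrillar and basement membrane matrix, 2 (4.65%) held a lower-GC-only and 3 (6.98%) a higher-GC-only region, against 3.39% and 5.62% of all genes. The collagen genes had a median length of 114 kb, against 15.4 kb of all genes. A region of any kind was held by 100% of them, against 75.1% of all genes. Longer genes have more room for a region, and the shares were not adjusted for length. The neighbours Col4a1 and Col4a2, whose products form the same basement membrane collagen, had one of each. Col4a1 had an intronic region of 44.2% GC (chr8:11288017-11288353) with 19, 22 and 23 reads in the lower-GC samples, and Col4a2 a coding exon region of 59.1% GC (chr8:11425225-11425603) with 18, 23 and 16 reads in the higher-GC samples. Col14a1 held the other lower-GC-only region, in an intron, and Col25a1 and Col6a5 the other higher-GC-only regions, in a coding exon and an intron. Cacna1a, the pore subunit of P/Q-type calcium channels and the only one of 9 such alpha1 genes with a region of either kind, repeated the contrast within a gene, with an intronic lower-GC-only region of 48.4% GC and an intronic higher-GC-only region of 57.9% GC.

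Of 16 genes that mark mesangial cells and pericytes, 0 held a lower-GC-only and 1 (6.25%) a higher-GC-only region, against 3.39% and 5.62% of all genes. This was Cspg4, the NG2 proteoglycan of pericytes, with 2 coding exon regions. The first (chr9:56733140-56733929, 59.4% GC) had 28, 46 and 28 reads and the other (chr9:56746206-56746658, 58.1% GC) 26, 47 and 34 reads in control replicates 2 and 3 and TGF-β1 replicate 2. Of 17 podocyte, tubule and endothelial genes, Podxl, a podocyte sialomucin, held a lower-GC-only region in an intron, and Emcn and Kdr, both endothelial, each a higher-GC-only region. The Emcn region had a GC content of 33.9%, far below the median of its kind, so not every higher-GC-only region was GC-rich.

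In the zinc-finger genes named Zfp, which hold long coding exons of finger repeats, 10 of 365 (2.74%) had a lower-GC-only and 26 of 365 (7.12%) a higher-GC-only region, near the 3.39% and 5.62% of all genes. The counts in the other lists of this paragraph are to be read beside the same shares, and no list was tested against them. Zfp423, Zfp532 and Zfp609 had 2 higher-GC-only regions each, of which 1, in Zfp532, lay in a coding exon, with 25, 40 and 35 reads. In the clustered protocadherins, whose gene models overlap, a lower-GC-only region was found in 1 of 24 genes (Pcdhb16) and a higher-GC-only region in 2 of 24 (Pcdha11 and Pcdhgc5). In the Hox clusters, 3 of 40 gene entries had a lower-GC-only region, all of them the same region. It lay downstream of Hoxa5 and within the span of Hoxa3, which is listed as 2 entries. A higher-GC-only region was found in 2 of 40 (Hoxb1 and Hoxc4). In Hoxc4 this region had 15, 44 and 32 reads, with control replicate 3 the highest. Of 33 imprinted genes found, 1 (Zim1) had a lower-GC-only and 3 (Ddc, Gnas and Trappc9) a higher-GC-only region. Of 25 germline genes, which are silenced by promoter methylation in somatic cells, 0 and 1 (Mael) had one, and of 91 cytochrome P450 genes 1 (Cyp2c55) and 1 (Cyp26b1). The olfactory receptors, 1087 small genes, and the 65 clustered histone genes had none of either kind, and of 320 vomeronasal receptors 0 and 1 (Vmn2r27) had one. The shares were 0 to 13.6% of the genes of a list for lower-GC-only and 0 to 11.8% for higher-GC-only regions. Median gene length also differed between lists, from 0.53 kb in the clustered histones to 159 kb in the calcium channel alpha1 genes.

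In the 41744 regions called in all 6 samples, pileup was compared on a log2 scale after centring on each sample's median. These regions had to pass the threshold in every sample, and of the 791 regions of 60% GC or more only 9 did. The mean of the higher-GC samples minus that of the lower-GC samples had an SD of 0.235 across regions and ranged from -0.91 to 1.23. It was 1 or more, a 2-fold excess in the higher-GC samples, in 32 regions (0.0767%), and in all 32 the values of the 3 higher-GC samples lay above those of the 3 lower-GC samples. In 0 regions (0%) was pileup 2-fold higher in the lower-GC samples. With fold enrichment over the local background in place of pileup, 1 region was 2-fold higher in the higher-GC samples. At an absolute difference of 0.5 or more, 984 regions (2.36%) were higher in the higher-GC and 560 (1.34%) in the lower-GC samples, with a median GC content of 50.4% and 46.6% and a median of 3.63 and 2.39 CpGs per 100 bp. Groups that did not overlap were found in 2352 regions (5.63%) with the higher-GC samples above and in 2591 (6.21%) with the lower-GC samples above.

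Mean pileup moved with GC content in opposite directions at the ends of the series. In the 868 shared regions of 55% to 60% GC, the mean centred log2 pileup was -0.13 in control replicate 1, -0.016 in TGF-β1 replicate 3 and 0.048 in TGF-β1 replicate 1. It was 0.11 in control replicate 2, 0.11 in TGF-β1 replicate 2 and 0.22 in control replicate 3. In the 2819 regions below 40% GC, control replicate 1 had the highest value, 0.17, and the other 5 samples lay between 0.044 and 0.086. The set difference correlated across regions with GC content (Pearson r = 0.161 over 41502 regions with reference sequence) and with CpGs per 100 bp (r = 0.183), and these points share the same 6 libraries. In control samples alone, replicates 2 and 3 minus replicate 1, r with GC content was 0.213. In TGF-β1 samples alone, replicate 2 minus replicates 1 and 3, it was 0.0223. The set difference in control and that in TGF-β1 samples, which have no sample in common, correlated across the 41744 regions with r = 0.124. Between samples, control replicate 1 correlated with the others at r of 0.682 to 0.734, highest with TGF-β1 replicates 3 and 1. All other pairs had r of 0.761 to 0.804. TGF-β1 replicate 1 was nearer to TGF-β1 replicate 2 (0.798) and control replicate 3 (0.794) than to TGF-β1 replicate 3 (0.787), so pileup did not part cleanly by set.

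**Figure D4:**
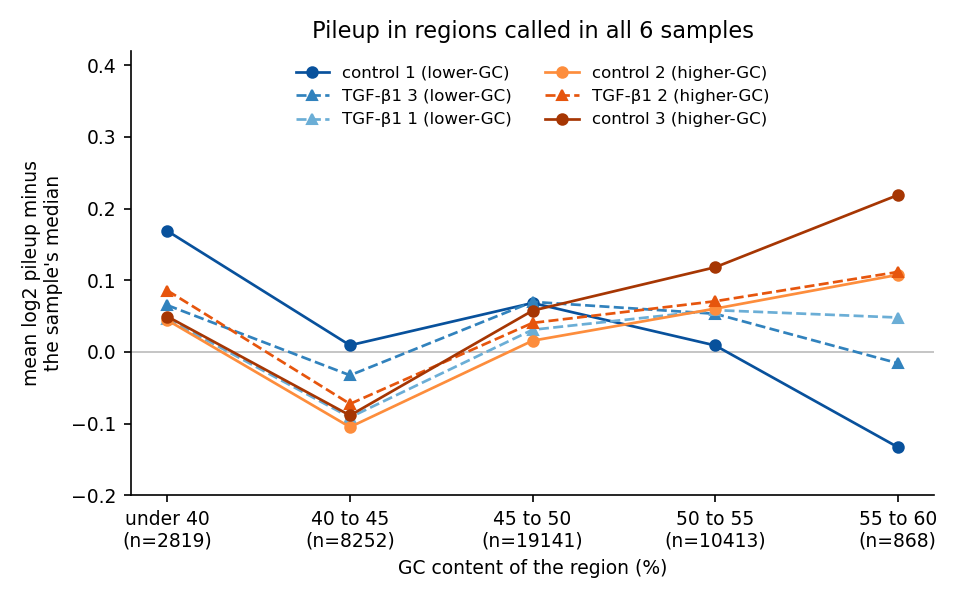
Mean log2 pileup minus the sample's median (vertical axis) in regions called in all 6 samples, by the GC content of the region (horizontal axis, %, with the number of regions), with circles for control and triangles for TGF-β1 samples. At 55% to 60% GC the samples run from -0.13 in control replicate 1 to 0.22 in control replicate 3, and the 9 regions of 60% or more are not drawn.

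Of the shared regions with the widest excess in the higher-GC samples, several lay in coding exons. Slc27a1, a fatty acid transporter, held one (chr8:74104262-74105043) with 14, 21 and 16 reads in control replicate 1 and TGF-β1 replicates 1 and 3 and 38, 46 and 30 reads in control replicates 2 and 3 and TGF-β1 replicate 2, a difference of 1.23 on the centred log2 scale. Zfp42, also known as Rex1, a zinc-finger factor of pluripotent cells, held one (chr8:44380862-44381904) with 20, 29 and 26 reads against 39, 71 and 60 reads, a difference of 1.22. In both, every higher-GC sample exceeded every lower-GC sample, as the choice of these regions requires. Dand5, an extracellular antagonist of the TGF-β superfamily ligand Nodal, had 19, 28 and 20 reads against 31, 58 and 56 reads in a coding exon (chr8:87340001-87340469), a difference of 1.15. In the region near Gm14409 (chr2:177036161-177036613) the pileups were 15, 31 and 18 reads against 43, 40 and 55 reads, a difference of 1.23. Intronic regions of Rbfox3, a neuronal splicing factor, and of 1700008F21Rik differed by 1.17 and 1.22, and regions between genes nearest to Socs6 and Gm9742 by 1.16 each. Within control samples the difference was 1.04 to 1.46 and within TGF-β1 samples 0.81 to 1.34 in these 8, whose choice fixes its direction in both.

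The regions with the widest excess in the lower-GC samples differed by less. Near Ntng1, which encodes the axon guidance molecule netrin-G1 (chr3:109574893-109575589), pileups were 23, 35 and 32 reads in control replicate 1 and TGF-β1 replicates 1 and 3 and 11, 19 and 18 reads in control replicates 2 and 3 and TGF-β1 replicate 2, a difference of -0.86. Near Tmprss11e, a transmembrane serine protease gene (chr5:87196954-87197397), they were 30, 30 and 30 reads against 14, 21 and 15 reads, a difference of -0.80. The 3 pileups of the lower-GC samples here were equal before centring. The region near C1ql1, a secreted synaptic protein of the C1q family, had 17, 29 and 29 reads against 12, 13 and 15 reads (-0.80). Intronic regions of Plekha6, Phf20 and Odz3 and regions near Rcan2 and Slc22a22 differed by -0.80 to -0.76. The GC content of these 8 regions was 40.8% to 50.2%, against 49.9% to 56.8% in the 8 with the opposite difference.

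**Figure D5:**
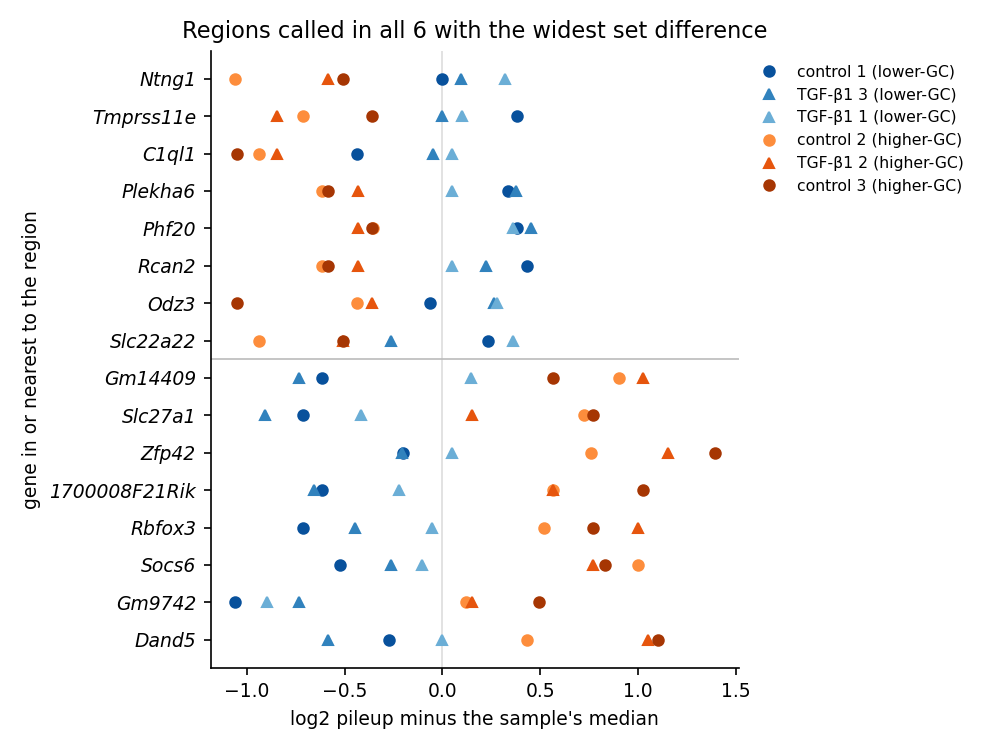
Log2 pileup minus the sample's median (horizontal axis) of each sample in the 16 regions called in all 6 samples with the widest difference between the sets, named by the gene in or nearest to the region (vertical axis), with circles for control and triangles for TGF-β1 samples. Above the grey line the lower-GC samples (blue) lie to the right, below it the higher-GC samples (orange), and circles and triangles are mixed on each side because the regions were picked for this pattern.

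Treatment was not used to choose the sets and could be tested with the set as a term. In the 41744 shared regions, limma with Benjamini-Hochberg adjustment called 2 regions (0.00479%) at an adjusted p below 0.05, 1 higher and 1 lower after TGF-β1, and 0 at the thresholds stated in the study's methods (FDR below 0.01 with a log2 fold change of more than 2 in size). Without the set in the model, 0 regions passed, with a smallest limma adjusted p of 0.677. The study tested read counts over merged peaks, not only regions called in every sample, and reported differentially methylated genes. Most methylation changes it lists for genes that also changed in expression are below 2 in size. The test here therefore does not repeat that of the study. At an unadjusted limma p below 0.05, 1381 regions (3.31%) were higher and 1239 (2.97%) lower with the set as a term. In all it was 2620 (6.28%) against 1744 (4.18%) without the set, and 1288 regions were in both. A share of 0.05 would pass this limit if treatment changed nothing, so both counts are near it. The balance of directions depended on the scaling and on the regions taken. Divided by reads in place of the median, 532 were higher and 2601 lower. With regions called in 3 or more samples it was 3862 higher and 2234 lower. There, a missing call was given the lowest pileup of its sample, 8 reads in control and 9 or 10 reads in TGF-β1 samples. That filling enters the balance. Leaving out TGF-β1 replicate 2 raised the number at an adjusted p below 0.05 to 161, of which 158 were higher after TGF-β1. In that fit the higher-GC set holds control samples only, so treatment rests on TGF-β1 replicates 1 and 3 against control replicate 1 alone. Leaving out control replicate 3 gave 0, and leaving out control replicate 1, TGF-β1 replicate 1 or TGF-β1 replicate 3 gave 1 each. With the replicate number as a block beside the set it was 9, a fit with 1 residual degree of freedom.

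The region called higher after TGF-β1 lay between genes, nearest to Gm5806 (chr15:82359986-82360506). Its pileups, in the order of the replicate numbers, were 11, 21 and 26 reads in the control samples and 40, 46 and 42 reads in the TGF-β1 samples, so the groups did not overlap. The log2 difference was 1.21 (SE 0.216, limma adjusted p = 0.0135) with the set as a term and 1.01 (limma adjusted p = 0.999) without it. The region called lower lay 1519565 bp from its nearest protein-coding gene, Cntnap5b (chr1:103901840-103902204), with 79, 54 and 51 reads in control and 48, 16 and 88 reads in TGF-β1 samples, which overlap. Within the lower-GC samples it was 79 against 48 and 88 reads, and within the higher-GC samples 54 and 51 against 16 reads (log2 difference -1.22, SE 0.197, limma adjusted p = 0.00309 with the set and 0.999 without it). Neither call held throughout. With regions called in 3 or more samples, 0 passed in either direction. With the set as a term, 0 regions were called higher when divided by reads or without control replicate 1, control replicate 3, TGF-β1 replicate 1 or TGF-β1 replicate 3, and 0 were called lower with fold enrichment or without control replicate 2 or control replicate 3. The next smallest p in each direction did not pass, in a region near Ipmk on chromosome 10 (log2 difference 0.85, limma adjusted p = 0.0704) and in an intron of Zfhx3 on chromosome 8 (log2 difference -0.92, limma adjusted p = 0.393).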

How the data were processed

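MeDIP-seq peak lists of 6 samples were analysed, with groups and replicate numbers from the labels. The authors mapped reads to mm9 (the submitters' processing notes name BWA, with no version) and ran MACS 2.1.0.20150731 on each sample alone, with no input DNA and a q-value limit of 0.01, as the file headers state. Of the deposited values, pileup is a signal that counts the extended reads at a summit without scaling to depth, and fold enrichment is the ratio of this signal to the local background. Significance was deposited as -log10 of the p-value and of the q-value.

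Peaks that shared at least 1 bp were joined, which was checked against bedtools 2.31.1. GC content, CpGs and gene elements came from NCBIM37, the assembly of mm9, with GENCODE vM1. Unplaced sequence had no reference here, which left 847 regions without GC content. Pileup was centred on each sample's median in regions called in all 6. Treatment was tested by limma 3.58.1 in R 4.3.3 (lmFit, eBayes with a trend) on log2 pileup, because read counts, which the study tested with DESeq, are not part of peak lists, and single values per sample by exact permutation. On simulated data with 200 of 41744 regions changed by a log2 of 2, the limma fit of TGF-β1 against control with the set as a term recovered 177. Of 200 changed by a log2 of 1 it recovered 1.

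The samples of each set, the gene lists, the rules and the tests were chosen with earlier results of these data known. Regions named were the 8 of highest mean pileup called in each set only, the 8 of widest non-overlapping set difference in each direction, the 2 of smallest limma p in each direction, and up to 3 members of each gene list with the most set-only regions. Sequences are those of the first 3 regions in each direction, of which 2 are not reported here. Depth, 9407103 to 13291419 reads per sample, limits which regions could be called. Calculations used Python 3.11.15. Alternatives were stricter peaks, another joining distance, chromosomes 1 to 19, other scalings, the replicate block and leaving out each sample.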

Additional observations from a re-analysis of the deposited data

Results flagged for a closer look

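In 3 measures of the peak lists, every TGF-β1 sample lay on one side of every control sample within the lower-GC samples and on the opposite side within the higher-GC samples. The difference between the sets was not tested, and each set holds 3 samples, with 1 control sample in the lower-GC and 1 TGF-β1 sample in the higher-GC samples. With 1 sample set against 2, the criterion can often be met without any effect of treatment, and chance was not excluded. CpG-island-like peaks are also defined in part by GC content, on which the sets were chosen. The share of CpG-island-like peaks in TGF-β1 minus control samples was 0.784 percentage points in the lower-GC and -0.293 in the higher-GC samples. For peaks in the 2 kb upstream of genes it was 0.0265 and -0.0757 percentage points, and for intronic peaks -0.648 and 0.147 percentage points. Of 15 measures compared in this way, the other 12 did not meet the criterion. The share of peaks in coding exons, for instance, was higher in TGF-β1 samples by 1.15 percentage points in the lower-GC samples, while in the higher-GC samples TGF-β1 replicate 2 (9.22%) lay between the control samples (8.71% and 9.40%).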

How the results depend on the processing

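Under stricter peaks (-log10 q of at least 5, fold enrichment of at least 5, or a common lowest pileup scaled to reads), joining up to 200 bp apart and chromosomes 1 to 19, the numbers of lower-GC-only regions (1001 to 1288) and higher-GC-only regions (1850 to 1936) stayed within 1.5 times those reported. Their difference in median GC content was 5.26 to 6.09 percentage points, and 7.5 with GC read from 200 bp at the summit. Leaving out a sample asks for fewer calls, and gave 2275 to 4024 lower-GC-only regions (most without control replicate 1), 2351 to 5059 higher-GC-only regions (most without control replicate 2) and a difference of 4.18 to 5.96 percentage points.

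In regions called in all 6 samples, fold enrichment in place of pileup lowered the correlation of GC content with the set difference to 0.0807 and the number of regions 2-fold higher in the higher-GC samples to 1. Leaving out a sample gave correlations of 0.117 to 0.186, 24 to 159 regions 2-fold higher in the higher-GC samples (159 without TGF-β1 replicate 1, 79 without control replicate 1, 70 without control replicate 2, 54 without TGF-β1 replicate 3) and 0 to 3 in the lower-GC samples. The correlation of the set difference in control with that in TGF-β1 samples was 0.0473 to 0.162, the lowest without TGF-β1 replicate 3. It could not be computed without control replicate 1 or TGF-β1 replicate 2. The cause of these changes was not tested.

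For TGF-β1 against control with the set as a term, the number of regions at a limma adjusted p below 0.05 was 0 without the set, 1 divided by reads, 4 with quantile normalization and 0 over regions called in at least 3 samples. Leaving out a sample gave 0 to 161. With the replicate number as a block it was 9 with the set and 0 without it. Deviations of same-numbered samples from their group means correlated with r of -0.0464, 0.0432 and -0.130 across regions, so pileup showed no pairing by number. Each group holds 3 samples, and the samples numbered 3 lie in opposite sets. Whether same-numbered samples shared a culture or a batch was not tested.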

Other observations

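Pileup also differed between chromosomes, in the same way in both sets. In regions called in all 6 samples, the mean centred log2 pileup on chromosome 8 (3470 regions) was 0.19 to 0.24 in each of the 6 samples, the highest of the autosomes and chromosome X in every sample. On chromosome 15 it was 0.078 to 0.13 and on chromosome 10 it was 0.067 to 0.13. On chromosome 7 it was -0.12 to -0.068, the lowest of the autosomes in every sample. The median set difference on chromosome 8 was -0.013, near the -0.015 of all regions. Chromosome 8 held 5 of the 8 strongest lower-GC-only and 0 of the 8 strongest higher-GC-only regions, but 92 of all 1289 lower-GC-only and 160 of all 1930 higher-GC-only regions. It also held 4 of the 8 shared regions with the widest excess in the higher-GC samples and 1 of the 8 with the opposite difference. The number of chromosome copies in these cells was not measured here.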
